A study of Drosophila melanogaster with 2 samples.

Results

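Candidate binding regions of the transcription factor Gcm2 at genes for small noncoding RNAs were described: 242 of the 30000 candidate regions in the pooled list of both libraries had their summit, the strongest point of the region, no more than 500 bp from a transcription start site (TSS) of a tRNA, snoRNA or snRNA gene. Of these, 131 lay at tRNA genes, 97 at snoRNA genes and 19 at snRNA genes, and 5 of them were near genes of more than 1 type and count under each. They lay at 278 of the 591 nuclear genes of these 3 types. The rule used position only, so no signal value chose the regions.

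The libraries came from whole Drosophila melanogaster embryos of mixed sex, 0 to 24 h old, of the strain gcm2-GFP, a transgenic line in which GFP is fused to the C terminus of gcm2. Chromatin was sonicated to 200 to 800 bp and immunoprecipitated with an anti-GFP antibody, and biological replicates 2 and 3 form the only group. No untagged or mock library was analysed here, and in whole embryos, signal from few cells and weak signal from many cells cannot be told apart. Regions were therefore compared with one another within these libraries.

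RNA polymerase III transcribes tRNA genes from promoter elements inside the gene, the A box and the B box, which are bound by TFIIIC, which in turn brings TFIIIB and the polymerase. Genes of the spliceosomal snRNAs carry an upstream element, the PSE, bound by the SNAPc complex, and most are read by RNA polymerase II, whereas U6 is read by RNA polymerase III. In the fly, most snoRNAs are cut from introns of host genes and need no promoter of their own, and they guide the chemical modification of ribosomal RNA. Gcm2 and its paralog Gcm are zinc-containing factors known for glial and blood cell development.

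Promoters of 8 snRNA genes with a candidate region are shown first, because the PSE core was found upstream of 22 of 32 snRNA genes. It was found at genes with and without a candidate, and at 10 of the 15 with one. Each sequence runs 5′ to 3′ on the gene's strand from 80 to 41 bp upstream of the TSS in the Release 6 genome (dm6) from RefSeq, and capitals mark the PSE core AATTCCCAA where it occurs exactly. They lie at chr3R:23859671-23859710 (minus strand), chr2L:13215759-13215798 (plus), chr2L:21215219-21215258 (minus), chr3L:3090721-3090760 (plus), chr3R:24557135-24557174 (plus), chr3L:3893371-3893410 (minus), chr3R:5195204-5195243 (minus) and chr3R:7475037-7475076 (minus), in the order given.
snRNA:U1:95Ca: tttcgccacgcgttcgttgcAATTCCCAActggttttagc
snRNA:U2:34ABb: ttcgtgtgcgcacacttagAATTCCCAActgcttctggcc
snRNA:U4:39B: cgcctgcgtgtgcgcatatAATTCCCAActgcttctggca
snRNA:U5:63BC: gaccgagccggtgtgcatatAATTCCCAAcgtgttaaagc
snRNA:U6:96Ac: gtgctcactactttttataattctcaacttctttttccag
snRNA:U11: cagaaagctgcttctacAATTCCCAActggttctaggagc
snRNA:U4atac: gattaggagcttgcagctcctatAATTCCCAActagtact
snRNA:7SKa: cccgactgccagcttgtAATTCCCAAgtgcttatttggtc

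The tRNA genes next to 3 of the strongest tRNA regions are shown because they carry the internal B box, in capitals (GTTCGANNC or GTTCAANNC, read on the gene's strand). The summits of these regions lay 206, 288 and 476 bp from the tRNA TSS, in the order below. None of these summits had the B box core within 100 bp. The genes lie at chr3R:8669081-8669174 (minus), chr2L:8541761-8541832 (plus) and chr3R:19672277-19672349 (minus).
tRNA:Tyr-GTA-1-8: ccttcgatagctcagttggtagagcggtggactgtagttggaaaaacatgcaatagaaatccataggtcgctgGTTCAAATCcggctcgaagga
tRNA:Asp-GTC-1-5: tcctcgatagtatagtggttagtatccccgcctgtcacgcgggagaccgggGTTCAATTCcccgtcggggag
tRNA:Val-CAC-2-5: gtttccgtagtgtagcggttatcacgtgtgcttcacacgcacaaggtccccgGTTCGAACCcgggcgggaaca

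Promoters of 3 ribosomal protein genes that host snoRNAs are shown because the strongest of the snoRNA regions at such hosts had their summits there. Each runs from 100 to 1 bp upstream of the first annotated TSS, and capitals mark the DRE octamer TATCGATA, the site of the factor DREF. They lie at chr3L:8600906-8601005 (plus), chr3L:3222961-3223060 (minus) and chr3L:13023252-13023351 (plus).
RpL14: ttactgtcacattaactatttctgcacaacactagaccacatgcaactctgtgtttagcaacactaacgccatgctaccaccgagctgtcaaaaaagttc
RpL28: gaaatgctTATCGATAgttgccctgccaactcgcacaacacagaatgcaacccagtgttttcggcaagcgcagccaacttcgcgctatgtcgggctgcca
RpS12: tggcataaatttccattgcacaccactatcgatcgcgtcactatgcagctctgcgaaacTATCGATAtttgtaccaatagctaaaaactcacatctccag

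As a last set, the summits of the strongest tRNA region and the strongest snRNA region are given with 50 bases on each side, on the plus strand, from chr3R:8669330-8669430 and chr3R:24557056-24557156. Neither holds the GCM octamer in any of the 4 forms searched.
tRNA:Tyr-GTA-1-8 region: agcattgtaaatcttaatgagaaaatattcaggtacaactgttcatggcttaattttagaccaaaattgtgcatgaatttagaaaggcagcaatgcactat
snRNA:U6:96Ac region: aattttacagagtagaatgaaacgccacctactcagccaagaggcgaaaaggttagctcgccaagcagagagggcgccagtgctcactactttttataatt

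The first question was how strong these regions were. Signal is the authors' enrichment value for a region, and a deposited list holds the regions that the authors retained with the irreproducible discovery rate (IDR), a measure of reproducible ranking between replicates. That list held the 2177 pooled candidates of highest signal, down to 57.76. Being retained was thus the same as passing a cut on pooled signal, so retained share, rank and signal are not separate measures. Of the 242 small-RNA regions, 22 were retained (9.09%, 95% Wilson interval 6.08 to 13.4), against 7.26% of all candidates and 12.7% of candidates within 500 bp of a TSS of any gene. A deposited q-value at or below 0.05 was given to 70 of them (28.9%, interval 23.6 to 34.9), against 22.7% of all candidates and 36.0% of candidates near any TSS. The small-RNA regions thus lay between both backgrounds on both measures, and the interval of the retained share includes the values for all candidates and for candidates near any TSS. Their median signal was 23.67, against 20.52 for all candidates and 24.96 for those near any TSS. With a distance of 250 bp in place of 500 bp, 11 of 153 regions were retained. By rank the 242 regions spread over the whole list, with 22 among the first 2177 ranks, 85 in the rest of the first 10000, 76 in the second 10000 and 59 in the third.

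The intervals of the 3 types overlapped. At tRNA genes 11 of 131 regions were retained (8.40%, interval 4.75 to 14.4), at snoRNA genes 10 of 97 (10.3%, interval 5.70 to 17.9) and at snRNA genes 2 of 19 (10.5%, interval 2.94 to 31.4). Median signals were 23.12, 23.97 and 21.85 for tRNA, snoRNA and snRNA regions, and the strongest regions reached 213.9, 192.9 and 93.39 in the same order. In replicate 3 alone, 3 of 15 snRNA regions were among its 2177 strongest, and in replicate 2 alone 3 of 20. The difference between the types was not tested, since many regions share a gene cluster or overlap: 83 of the 242 overlapped another of the set.

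Shares differed more by whether a protein-coding TSS was nearby, a difference that was described and not tested. Of the 55 small-RNA regions that also had a protein-coding TSS within 500 bp, 13 were retained (23.6%, interval 14.4 to 36.3), against 9 of the 187 without one (4.81%, interval 2.55 to 8.89), and these intervals did not overlap. The median signal was 34.57 with such a TSS nearby and 21.85 without. At tRNA genes 7 of 24 regions with a protein-coding TSS and 4 of 107 without one were retained. At snoRNA genes the counts were 6 of 30 with one and 4 of 67 without one. At snRNA genes only 1 region had such a TSS nearby, and both retained snRNA regions had none. Candidates near any protein-coding TSS were retained in 13.1% of cases and those over 500 bp from every TSS in 4.58%.

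**Figure D1:**
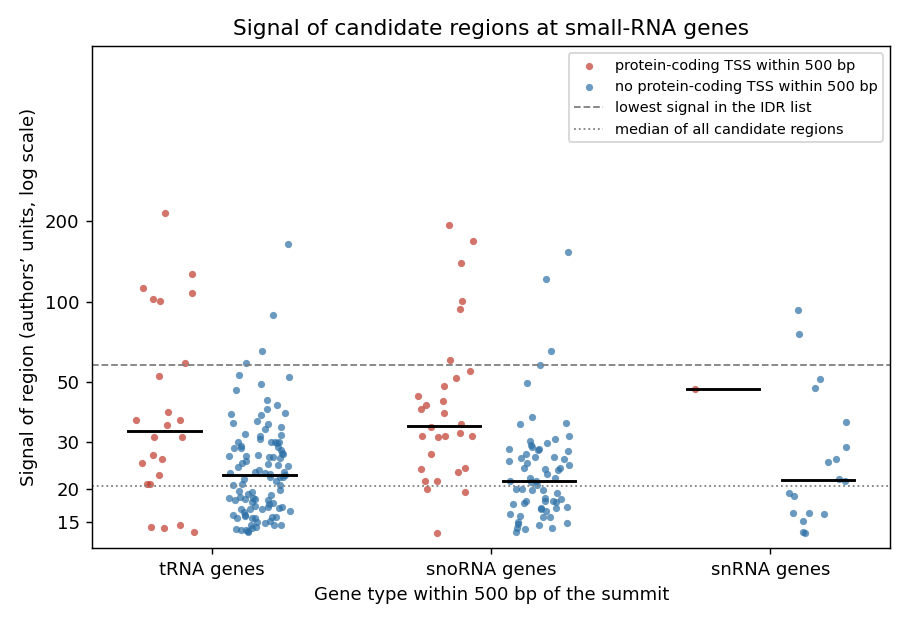
Signal of each candidate region (log scale, authors' units) at tRNA, snoRNA and snRNA genes, with regions that have a protein-coding TSS within 500 bp in red and the others in blue; black bars are medians. The red medians at tRNA and snoRNA genes, 32.89 and 34.35, lie above the blue ones, 22.61 and 21.45, and the lowest IDR signal is 57.76.

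Where the summits lay relative to the small-RNA start was examined next. Within 100 bp of a tRNA TSS there were 0.953 candidate summits per kb of sequence, against 0.224 per kb over the whole reference, and 0.994 per kb within 100 bp of a protein-coding TSS. The density at tRNA genes was 0.488 per kb at 100 to 250 bp and 0.305 per kb at 2000 to 5000 bp. At snRNA genes the first 100 bp held 7 summits, or 1.09 per kb, and 500 to 1000 bp held 0.202 per kb. At snoRNA genes the order differed: 0.578 per kb within 100 bp and 0.702 per kb at 250 to 500 bp, where 7 of 44 regions were retained. At 500 to 1000 bp from a snoRNA TSS, outside the chosen distance, 16 of 72 regions were retained.

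**Figure D2:**
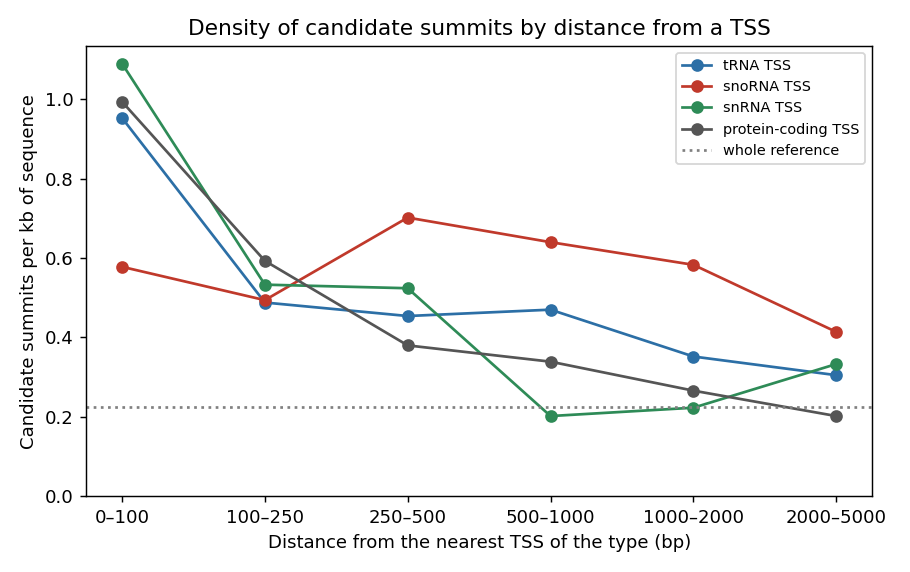
Candidate summits per kb of sequence (y axis) by distance from the nearest TSS of each gene type (x axis, bp); the dotted line is the whole reference, 0.224 per kb. The tRNA, snRNA and protein-coding lines are highest within 100 bp, at 0.953, 1.09 and 0.994 per kb, whereas the snoRNA line is highest at 250 to 500 bp, at 0.702 per kb.

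Although tRNA starts had this local excess of summits, none of the regions closest to them was retained. Of the 55 tRNA regions with a summit within 100 bp of the tRNA TSS, 0 were in the IDR list, where a count of 0, taken as up to 3 counts, allows a share of up to 5.45%, and the upper limit of the Wilson interval is 6.53%. Their highest signal was 52.77, at rank 2586, and their median was 22.86. Among the 76 tRNA regions with a summit over 100 bp away, 11 were retained (14.5%, interval 8.28 to 24.1), with a median of 24.21. For protein-coding genes the order was the other way, with 15.4% retained within 100 bp and 11.6% over 100 bp and up to 500 bp away. The division at 100 bp was chosen after the values had been seen. In replicate 2 alone, 5 of the 59 tRNA regions within 100 bp were among its 2177 strongest, and in replicate 3 alone 0 of 36 were, so the absence held in the pooled list and in 1 of the 2 libraries.

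The strongest regions at tRNA starts were those of isoleucine, serine and arginine genes, named after their values were seen. The region at tRNA:Ile-AAT-1-8 (2R:13437631-13438094, summit 3 bp upstream) had a pooled signal of 52.77, ranked 1906 in replicate 2 and 4212 in replicate 3. That at tRNA:Ser-AGA-2-4 (2L:3172940-3173403, 88 bp upstream) had a pooled signal of 52.30 but ranked 1263 in replicate 2 and 28992 in replicate 3. That at tRNA:Arg-TCT-1-1 (2R:11652271-11652734, 64 bp upstream) had a pooled signal of 49.38. All 3 had a lower rank number, and so a stronger place, in replicate 2.

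**Figure D3:**
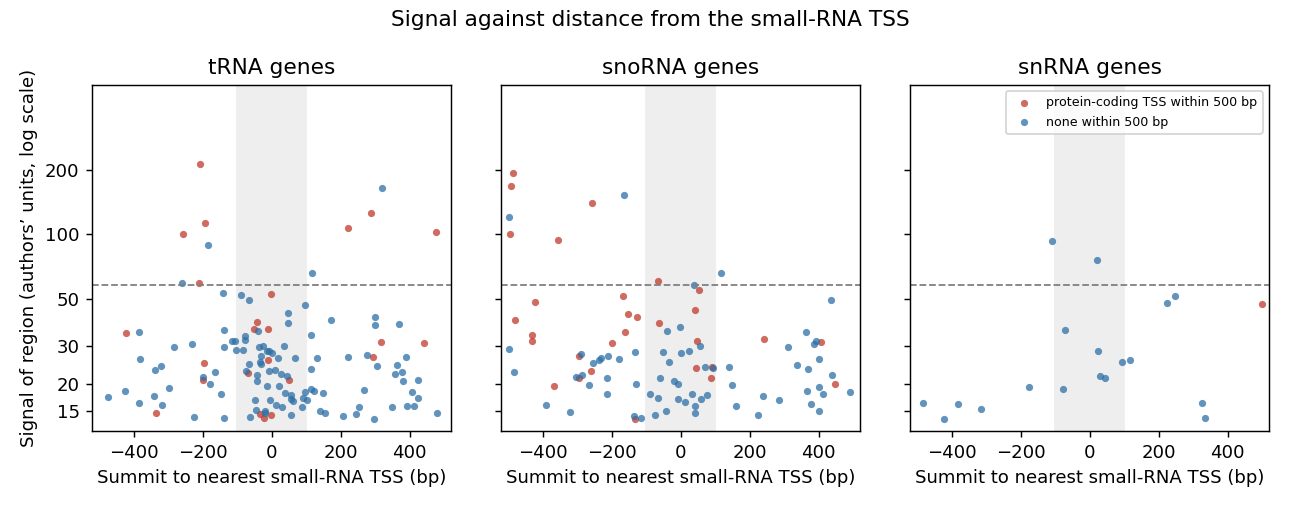
Signal of each region (log scale, authors' units) against the distance of its summit from the nearest small-RNA TSS (bp, negative is upstream), with a panel per gene type and the 100 bp either side of the TSS shaded. No tRNA region in the shaded band reaches the dashed line at 57.76, the lowest IDR signal, whereas 2 snoRNA regions and 1 snRNA region there do.

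Counted by gene, 157 of 290 tRNA genes had a candidate (54.1%, interval 48.4 to 59.8), beside 7437 of 13945 protein-coding genes (53.3%). The share was 39.4% for snoRNA genes (106 of 269, interval 33.8 to 45.4), 46.9% for snRNA genes (15 of 32, interval 30.9 to 63.6) and 27.1% for other noncoding RNA genes. Genes with a retained region numbered 13 for tRNA (4.48%), 12 for snoRNA (4.46%) and 3 for snRNA (9.38%), against 10.8% of protein-coding genes. Close to a protein-coding TSS, 23 of 32 tRNA genes had a candidate and 8 had a retained one, against 134 and 5 of the 258 others.

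By amino acid, the share of tRNA genes with a candidate was largest for isoleucine, with 10 of 11 genes, followed by histidine with 4 of 5. Glutamine had 9 of 12, phenylalanine 6 of 8 and threonine 12 of 17. It was smallest for glycine, with 6 of 20, and tyrosine, with 3 of 10, and the single selenocysteine tRNA gene had none. None of the 11 isoleucine, 26 arginine, 20 serine, 19 lysine or 17 proline genes had a retained region, against 4.48% of all tRNA genes. The asparagine, cysteine, methionine and initiator methionine genes had none either. A count of 0, taken as up to 3 counts, allows up to 11.5% for arginine and 27.3% for isoleucine. These groups can therefore not be told apart from all tRNA genes. Intervals of the share with a candidate were wide, from 62.3 to 98.4% for isoleucine and from 14.5 to 51.9% for glycine. They also treat genes as independent. On 2R, 6 of the 11 isoleucine genes lie within 7658 bp and 4 of the 5 histidine genes within 2564 bp, where 1 region can count for several genes. By chromosome arm, 65 of 98 tRNA genes on 2R had a candidate (66.3%). The counts were 20 of 41 on 2L, 24 of 48 on 3L, 40 of 79 on 3R and 8 of 24 on X. No tRNA gene on 3L had a retained one, which allows a share of up to 6.25%, above the 4.48% of all tRNA genes.

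Most tRNA genes stand in clusters, here chains of genes no more than 10000 bp apart. The 69 clusters of at least 2 genes held 226 of the 290 genes, and 137 of these had a candidate (60.6%, interval 54.1 to 66.8), against 20 of the 64 single genes (31.2%, interval 21.2 to 43.4). Of all tRNA genes with a candidate, 87.3% were in clusters, against 77.9% of all tRNA genes. However, 47 of the 131 tRNA regions lay near 2 or more tRNA genes, so that 1 region can count for several genes of a cluster. A retained region was found at 9 of the 226 clustered genes (3.98%) and at 4 of the 64 single genes (6.25%).

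The cluster with most candidates, on 2R (6152603 to 6178656), held 15 genes of asparagine, arginine, lysine and isoleucine tRNAs, of which 9 had a candidate. Its 6 regions had a median signal of 17.67 and a maximum of 26.32, and none was retained. The next, also on 2R (11394353 to 11405303), held 4 threonine genes, all with a candidate, and 5 regions with a median signal of 22.61. Its strongest region reached 40.96 near tRNA:Thr-TGT-2-1. Each of its 5 regions had a candidate summit within 100 bp in only 1 of the 2 replicates. The medians of the first and the second cluster lay below and above that of all candidates, 20.52.

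Copies of a tRNA gene can share sequence to which a read cannot be placed uniquely. Genes whose sequence occurs once had a candidate in 22 of 52 cases (42.3%), against 135 of 238 genes with at least 2 identical copies (56.7%). Over the 250 bp on each side of the TSS, a median of 89.4% of the 31-base words were unique in the genome at tRNA genes with a candidate, against 89.6% at those without. Of the 9 tRNA genes with under 50% unique words, 1 had a candidate. How multiply mapping reads were treated is not given in the sources used here, and their part in the signal was not tested.

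The strongest tRNA region, at rank 132, lay 206 bp upstream of tRNA:Tyr-GTA-1-8 (3R:8669259-8669505), whose gene sequence is printed above. Its signal was 213.9 in the pooled list, 131.9 in replicate 2 (rank 89) and 84.76 in replicate 3 (rank 201). The summit lay 238 bp upstream of a TSS of CG8036, and the tRNA gene lies inside the gene p on the same strand. The next, at tRNA:Ala-TGC-2-1 (2R:17392304-17392767), had a signal of 164.2, 75.38 in replicate 2 and 90.13 in replicate 3. It had no protein-coding TSS within 500 bp, and it was the only one of the 22 retained regions with a GCM octamer within 100 bp of the summit.

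The next tRNA regions by strength lay beside protein-coding promoters. At tRNA:Asp-GTC-1-5 (2L:8541817-8542280) the signal was 126.2, with 79.54 in replicate 2 and 44.08 in replicate 3, and the summit lay 98 bp upstream of Sema1a, which encodes an axon guidance protein. At tRNA:His-GTG-1-3 (2R:12335026-12335489) it was 112.6, with the summit 58 bp upstream of CG8490. At tRNA:Phe-GAA-1-2 (X:6744088-6744551) it was 107.6, with the summit 82 bp upstream of RpL17, a protein of the large ribosomal subunit. In these 3 the protein-coding TSS was closer to the summit than the tRNA TSS.

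Without a protein-coding TSS within 500 bp, the strongest tRNA regions after tRNA:Ala-TGC-2-1 were those of tRNA:Gln-TTG-2-1 and tRNA:Glu-TTC-1-5. The region at tRNA:Gln-TTG-2-1 (X:3427475-3427938) had a signal of 89.06, with 50.86 in replicate 2 and 35.47 in replicate 3. That at tRNA:Glu-TTC-1-5 (2R:19727182-19727645), which is also near a snoRNA gene, had a signal of 65.64, with 56.15 in replicate 2 and no candidate within 100 bp in replicate 3. The fourth and last retained region of this kind, at tRNA:Thr-AGT-1-4, had a signal of 59.09 and rank 2079. Its summit lay 516 bp from a TSS of the protein-coding gene CG31279, just past the 500 bp limit. A weaker region that overlaps it (signal 36.06) lay 309 bp from that TSS and counts as near one.

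The snoRNA regions were divided by host gene. Of 269 snoRNA genes, 247 lie inside another gene on the same strand, and 94 of these had a candidate (38.1%), against 12 of the 22 without a host (54.5%). Summits lay inside the host at 71 of 97 snoRNA regions. Within 500 bp of a TSS of the host there were 31 regions, of which 8 were retained, with a median signal of 34.82. Where every TSS of the host was over 500 bp away there were 54 regions, of which 0 were retained. Candidates over 500 bp from any TSS were retained in 4.58% of cases, and 54 regions are too few to tell 0 apart from that share. The median of these 54 was 19.99, below that of all candidates (20.52), and their highest signal was 49.58.

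Ribosomal protein genes and the Uhg genes, noncoding hosts whose introns yield snoRNAs, hosted 8 of the 10 retained snoRNA regions, and the other 2 had no host. At ribosomal protein hosts 5 of 24 regions were retained and the median was 30.93, and at Uhg hosts 3 of 14 with a median of 26.13. At other protein-coding hosts 0 of 45 regions were retained, with a median of 19.96 and a maximum of 39.69. Of all candidates 7.26% were retained, and whether 0 among these 45 is lower was not tested. The host TSS was near in 14 of the 24 regions at ribosomal protein hosts, in 8 of the 14 at Uhg hosts and in 7 of the 45 at other protein-coding hosts. The class of host and the distance to its start therefore moved together, and their separate parts were not tested.

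**Figure D4:**
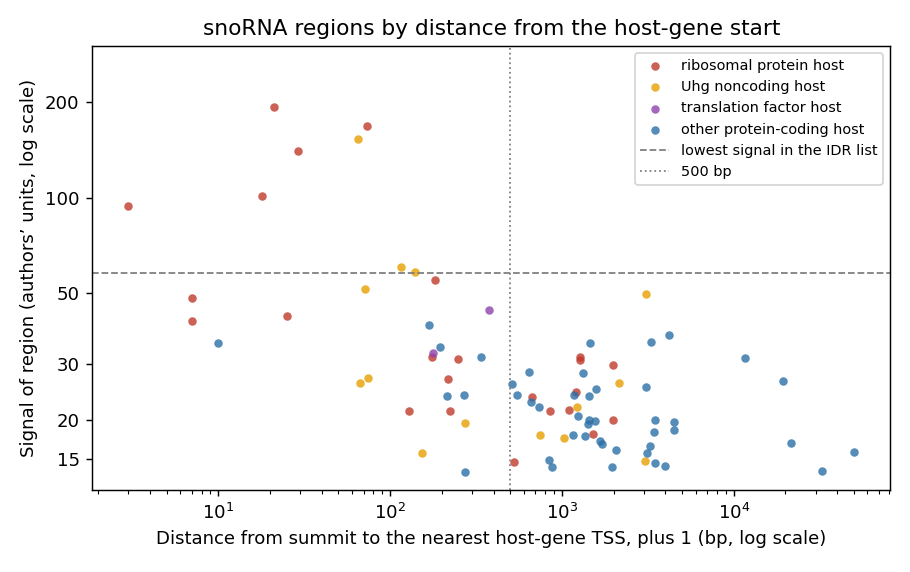
Signal of snoRNA regions (y axis, log scale, authors' units) against the distance of the summit from the nearest TSS of the host gene plus 1 bp (x axis, log scale), coloured by host class. Every plotted region above the dashed line at 57.76, the lowest IDR signal, lies left of the dotted line at 500 bp and has a ribosomal protein or Uhg host.

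The strongest snoRNA region lay 487 bp upstream of snoRNA:U49:66Da at the start of its host RpL14 (3L:8600886-8601050), with the summit 20 bp upstream of the RpL14 TSS, within the promoter printed above. Its signal was 192.9 pooled (rank 164), 103.6 in replicate 2 and 89.04 in replicate 3. The region of snoRNA:Or-CD11a lay at RpL28 (3L:3222911-3223093), 72 bp upstream of the nearest host TSS, with 168.5 pooled, 92.53 in replicate 2 and 80.86 in replicate 3. The region of snoRNA:Me28S-A774b lay at RpS12 (3L:13023092-13023555), 28 bp upstream of the host TSS, with 139.9 pooled, 68.81 in replicate 2 and 73.95 in replicate 3. Both carried the DRE octamer shown in capitals in the promoters above, and RpL14 did not.

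At the Uhg4 host, the region of snoRNA:Psi28S-2949 (2R:9094977-9095440) had a signal of 152.5 pooled, 80.41 in replicate 2 and 69.12 in replicate 3, with its summit 64 bp from the Uhg4 TSS. A second retained region there overlapped it (2R:9095179-9095642), with a signal of 58.19 pooled, 7.852 in replicate 2 (rank 28453) and 29.24 in replicate 3 (rank 2124). The region of snoRNA:Or-ACA6 (2R:10081590-10082053), 121.0 pooled, 68.13 in replicate 2 and 57.01 in replicate 3, had no host and no protein-coding TSS within 500 bp. Its summit lay 497 bp upstream, at the edge of the chosen distance.

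By the kind of guide, box C/D snoRNAs, which direct ribose methylation, had a candidate at 42 of 109 genes (38.5%) and a retained one at 7. Box H/ACA snoRNAs, which direct pseudouridylation, had a candidate at 45 of 114 genes (39.5%) and a retained one at 4. The scaRNAs, which modify snRNAs, had a candidate at 4 of 16 genes and a retained one at 0. Kind was read from the gene name, and 30 snoRNA genes had a name that does not give it.

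The snRNA regions were few, and both retained ones were on 3R. The region with its summit between snRNA:U6:96Ab and snRNA:U6:96Ac (3R:24556874-24557337), genes of the catalytic snRNA of the spliceosome, had a signal of 93.39 pooled (rank 843), 52.82 in replicate 2 (rank 748) and 39.86 in replicate 3 (rank 1125). Its summit lay 109 bp upstream of snRNA:U6:96Ac. The region at snRNA:U1:95Ca (3R:23859375-23859838), a gene of the snRNA that pairs with the 5′ splice site, had 75.78 pooled (rank 1284), 31.75 in replicate 2 (rank 2086) and 42.62 in replicate 3 (rank 995). Its summit lay 23 bp inside the gene. Both were among the 2177 strongest regions of each replicate. The sequences of snRNA:U1:95Ca, snRNA:U6:96Ab and snRNA:U6:96Ac each occur in 3 copies. Unique 31-base words around the TSS made up 68.8%, 81.7% and 82.4% in that order. A retained region was found at 3 of 8 snRNA genes with 2 or more identical copies and at 0 of 24 with a single copy. The part of multiply mapping reads in this was not tested.

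Below the IDR limit came 7SKa, U5 and U4. The region at snRNA:7SKa, which encodes the RNA that holds the elongation factor P-TEFb inactive, had 51.26 pooled, no candidate within 100 bp in replicate 2 and 41.61 in replicate 3. That at snRNA:U5:63BC had 47.53 pooled, 30.19 in replicate 2 and 24.89 in replicate 3. That at snRNA:U5:35D had 47.02, but its summit lay 499 bp downstream of the snRNA TSS and 105 bp upstream of a TSS of the protein-coding gene ND-B17. That at snRNA:U4:39B had 35.66. The strongest U2 region, at snRNA:U2:34ABb, had 25.73, and of the minor spliceosome, snRNA:U4atac had 19.25 and snRNA:U11 18.86, both below the median of all candidates. The region at snRNA:LU, with its summit 30 bp from the TSS, had 21.85 pooled (rank 13307), no candidate within 100 bp in replicate 2 and 23.47 in replicate 3. Genes for U12, U6atac, U7, 7SKb and U6:96Aa had no candidate within 500 bp.

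The PSE core AATTCCCAA, searched on the gene's strand in the 150 bp upstream of the TSS, was found at 22 of 32 snRNA genes (68.8%), with its first base 63 to 57 bp upstream. It was found at 1 of 290 tRNA genes, 3 of 269 snoRNA genes and 22 of 13945 protein-coding genes (0.158%). Of the 22 snRNA genes with it, 10 had a candidate, against 5 of the 10 without it. The core was chosen with the sequences in view. Near the summits, within 100 bp on both strands, it was found at 4 of 19 snRNA regions (21.1%, interval 8.51 to 43.3), against 0.360% of all candidates. The regions were picked by distance from genes that mostly carry the core, so an excess over all candidates was given by that rule.

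Other motifs within 100 bp of the summit, on both strands, set the types apart by their own gene sequences. The B box core was found at 47 of 131 tRNA regions (35.9%, interval 28.2 to 44.4), at 6.19% of snoRNA regions, at 0 of 19 snRNA regions and at 3.82% of all candidates. Of the 47 tRNA regions with it, 3 were retained and the median signal was 21.83, against 8 of the 84 without it and a median of 24.77. The second B box form was added after tRNA sequences had been seen. The GCM octamer (ATGCGGGT, ATGCGGGC, ATACGGGT or ATACGGGC) was found at 6 of 242 small-RNA regions (2.48%, interval 1.14 to 5.30), against 1.54% of all candidates and 0.781% of IDR peaks.

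The DRE octamer was found at 8 of the 242 small-RNA regions (3.31%, interval 1.68 to 6.39), against 1.67% of all candidates and 4.39% of those near any TSS. Of these 8, 7 had a protein-coding TSS within 500 bp and 5 were retained: at RpL28, RpS12, RpS29, CG8490 and CG30122. Over all candidates, 88 of the 500 with the octamer were retained. Of all small-RNA regions near a protein-coding TSS, 13 of 55 were. A link between the octamer and retention was not tested. The GAF site GAGAGAG was found at 2 small-RNA regions (0.826%, interval 0.227 to 2.96), against 4.12% of all candidates, and the M1BP site GGTCACACT at 1 (0.413%), against 1.09%. Such matches describe the sequence and do not mark a bound site.

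Replicates were compared last. A summit within 100 bp was listed in both replicates at 87 of the 242 small-RNA regions (36.0%, interval 30.2 to 42.2), only replicate 2 at 75, only replicate 3 at 52 and neither at 28. The share was 33.9% for all candidates, 44.1% for those near any TSS and 93.9% for IDR peaks. By type it was 34.4% for tRNA, 39.2% for snoRNA and 31.6% for snRNA regions. Of the 22 retained regions, 17 were among the 2177 strongest of both replicates, 4 of replicate 2 only and 1 of replicate 3 only. Retention matched a cut on the signal pooled over these same 2 replicates, and the strongest candidate within 100 bp was taken in each. It did not require a candidate in both, since 1 retained region had none within 100 bp in replicate 3. These counts therefore describe the retained regions and are no separate support for them. The list of replicate 2 alone held 243 small-RNA regions, of which 29 were among its 2177 strongest (11.9%), against 7.26% of that list and 13% of its candidates near any TSS. The list of replicate 3 alone held 204, of which 19 were (9.31%), against 7.26% of that list and 13.3% of its candidates near any TSS.

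**Figure D5:**
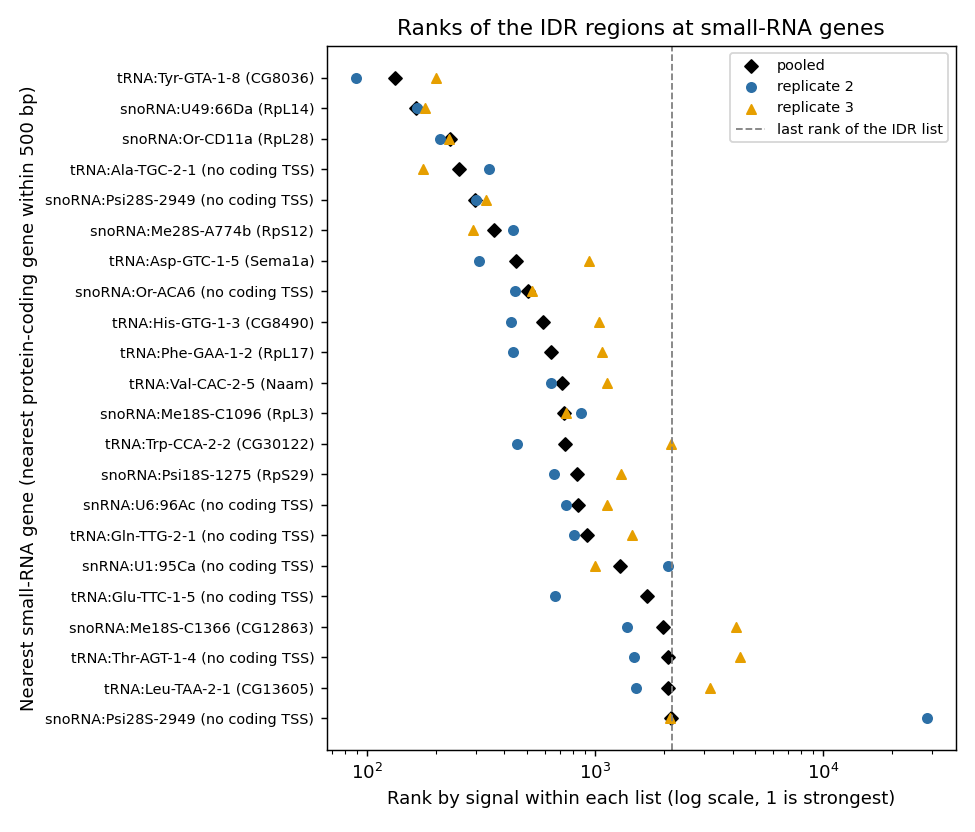
Rank by signal (log scale, 1 is strongest) of the 22 retained small-RNA regions in the pooled list, replicate 2 and replicate 3, labelled by the nearest small-RNA gene and the nearest protein-coding gene within 500 bp. Ranks in all 3 lists lie left of the dashed line at 2177 for 17 regions, and the lowest row, the second region at snoRNA:Psi28S-2949, has rank 28453 in replicate 2.

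Genes for the machinery that makes these RNAs were examined in part, without TFIIIC and the snoRNP protein GAR1. A candidate lay within 500 bp of a TSS of 9 of the 9 RNA polymerase III subunit genes examined, 7 of 7 genes of TFIIIB and SNAPc and 7 of 7 snoRNP core protein genes, against 53.3% of protein-coding genes. Retained were Bdp1 (signal 273.8) and Brf (153.7), both subunits of TFIIIB, Polr3E (78.39) of the polymerase, and Fib (75.22), the methyltransferase of box C/D particles. These 4 of 23 genes stand beside 10.8% of all protein-coding genes with a retained region. The lists are short and were not matched to other genes by expression, and neither difference was tested.

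At the edge of the rule, the last regions inside 500 bp were those of snRNA:U5:35D at 499 bp (signal 47.02), snoRNA:Or-ACA6 at 497 bp (121.0) and snoRNA:Psi28S-2622 at 497 bp (29.22). The first outside were at tRNA:Thr-TGT-2-1 at 504 bp (30.48), snoRNA:lola-d at 508 bp (16.39) and tRNA:Leu-CAA-2-2 at 508 bp (60.24).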

How the data were processed

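The authors' deposited dm6 lists of regions were used: 1 candidate list per replicate, 1 pooled over both replicates and the IDR list. Candidates were called on alignments with a control, per the deposited file descriptions. No aligner, caller, version or IDR threshold is given in the sources used here. The signal and the −log10 q-value of each region are the authors' own, with no replicate error. The signal was compared only within a list, except where medians of single replicates were labelled as close or moved. Read depth is unknown, so intervals cover counting error only.

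Summits (1-based) were set against TSSs of Ensembl release 115, and sequences were read from the RefSeq Release 6 genome, after the largest region end on each chromosome had been checked against its length. The 22 mitochondrial tRNA genes were not analysed. Retained regions were matched by coordinates and summit. A host gene is the shortest other gene that contains the small-RNA gene on its strand. Shares carry 95% Wilson intervals; no test was made, because regions of 1 list are not replicates. The search for regions near a TSS was tested on simulated data.

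The members, lists and motifs were chosen with earlier results of these data known. Genes were named by a rule: the 10 strongest regions, the 5 strongest of each type, retained snRNA regions, the 3 strongest tRNA regions with no protein-coding TSS within 500 bp, the strongest of each spliceosomal snRNA family from U1 to U6atac and of 7SK, 3 regions on each side of the 500 bp limit and the 2 tRNA clusters with most regions. Other regions named, among them tRNA:Val-CAC-2-5 and those at tRNA starts, were chosen after their values were seen. Genes of TFIIIC and GAR1 were not analysed because no symbol was matched, and 1 gene of the machinery lists is not reported here. Python 3.11.15, NumPy 2.4.6, pandas 2.3.3, SciPy 1.17.1 and Matplotlib 3.10.9 were used. Alternatives changed the distance, the overlap, the replicate, the IDR threshold, the q-value, the host and the cluster gap.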

Additional observations from a re-analysis of the deposited data

How the results depend on the processing

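Each of the 14 results was recomputed under the alternatives that apply to it, which gave 72 values. Of these, 31 stayed close to the reported value and 41 moved. Median signals of single replicates are on a lower scale than the pooled list, so they counted as moved by construction. Shares of genes with a candidate could not rise with a shorter distance or a q-value limit, nor fall with a longer distance. Shares and medians were close if within the spread of the replicates or the interval. The counts of retained regions and of clustered tRNA genes were close if within a fixed factor. Reversal was not among the labels. With a TSS distance of 250 bp, 11 regions were retained, the retained share was 5.66% at snoRNA and 16.7% at snRNA genes, the snRNA median signal was 27.17, and 33.8% of tRNA, 20.4% of snoRNA and 31.2% of snRNA genes had a candidate. With 1000 bp, 40 regions were retained (15.4% of snoRNA regions), the tRNA median was 22.15, 29.0% of regions had a protein-coding TSS within 500 bp, and 72.8% of tRNA and 72.9% of snoRNA genes had a candidate. With regions overlapping the gene body, 11 were retained, 5.17% of snoRNA and 14.3% of snRNA regions, and the snRNA median was 25.45. Without regions near a protein-coding TSS, 9 were retained, 3.74% of tRNA regions (median 22.61) and 5.97% of snoRNA regions (median 21.45), and 35.0% of snoRNA genes had a candidate. With only the 1088 strongest IDR peaks counted as retained, the share was 7.22% of snoRNA and 5.26% of snRNA regions. Summits within 50 bp and 250 bp gave 21.9% and 59.9% found in both replicates. Counting only candidates with a q-value at or below 0.05 left 15.5% of tRNA, 12.3% of snoRNA and 21.9% of snRNA genes.

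A single replicate has no IDR list, so its 2177 strongest regions stood in for it, which changes the measure along with the replicate. Leaving out either replicate then gave shares among the strongest of 7.84 to 11.5% for tRNA and 15 to 20% for snRNA regions, and genes with a candidate of 43.1 to 56.2% for tRNA and 36.8 to 39.03% for snoRNA. The snRNA share, 10.5% retained in the pooled list, was 15% among the strongest without replicate 3 and 20% without replicate 2, from 3 regions in each. Median signals were 12.24 to 12.29 for tRNA, 11.89 to 13.50 for snoRNA and 13.08 to 13.14 for snRNA regions, on a lower scale than the pooled list; set against the median of each replicate's own list they were 1.06 to 1.17 times it. The cause of these differences was not tested. No paired analysis was possible because both libraries belong to 1 group. Depth is unknown, and without an untagged library, signal that does not depend on the tagged protein was not measured.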
